A study of Rattus norvegicus with 8 samples.

Results

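The small leucine-rich proteoglycans described here are 6 genes, Dcn (decorin), Lum (lumican), Fmod (fibromodulin), Aspn (asporin), Bgn (biglycan) and Ogn (osteoglycin, also called mimecan). They were chosen by their measured levels, which differed between libraries in earlier results of these data, so their levels and ratios describe these libraries and test nothing. All 6 were listed in all 8 count tables, among 12282 genes listed in at least 1 library and 10849 listed in all 8. The values are counts per 1000000 UMIs (CPM; a UMI, or unique molecular identifier, tags a single captured transcript) summed over all barcodes with at least 5000 UMIs of a library, and the share of those barcodes with at least 1 UMI of the gene.

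The cells came from the femoral fracture callus, the repair tissue around a broken thigh bone, of Sprague Dawley rats, and were sequenced by droplet single-cell RNA sequencing 12 or 4 weeks after fracture. There was 1 library for each of 4 treatments at each week. The first had zoledronate with magnesium (Mg), the second had zoledronate with the neuropeptide CGRP (calcitonin gene-related peptide), the third had zoledronate, and the control was labelled untreated. Zoledronate is a bisphosphonate that slows bone resorption. Per the labels' protocols it was injected under the skin at 0.3 mg/kg each week for 12 weeks before the fracture, a text that stands unaltered on the control samples too. All fractures were closed, on one side, and fixed with an implant that the labels call IMN, either of stainless steel or containing Mg. The labels used here do not give the implant of each group, the dose of CGRP, the number of animals behind each library or their age. Cells of all groups were released with collagenase A for 4 h and kept in a dish for 24 h before sequencing, so all values describe callus cells after a day in culture.

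These proteins share a core of leucine-rich repeats that binds collagen, and they sit on the surface of collagen fibrils, where they influence how fibrils assemble and how thick they grow. Decorin and biglycan carry chondroitin or dermatan sulfate chains, and lumican, fibromodulin and osteoglycin can carry keratan sulfate. Asporin has a run of aspartate residues at its start and usually no such chain. In connective tissue and bone they are made by fibroblasts, tendon cells, chondrocytes and osteoblast-lineage cells, and several of them bind growth factors of the TGF-beta family.

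Promoter sequences are shown so that the letters before each gene can be compared. None was available here for Dcn and Bgn, so Dcn cannot be set beside its neighbour Lum. The sequences shown are the 250 bases before the annotated start of the other 4 members, 5′ to 3′ on the gene's strand, from RefSeq on the GRCr8 build. Lum lies on the plus strand (chr7:34245456-34245705), Fmod on the plus strand (chr13:48045317-48045566), Aspn on the minus strand (chr17:15310470-15310719) and Ogn on the minus strand (chr17:15258996-15259245). Capitals mark matches to the motifs searched.
Lum: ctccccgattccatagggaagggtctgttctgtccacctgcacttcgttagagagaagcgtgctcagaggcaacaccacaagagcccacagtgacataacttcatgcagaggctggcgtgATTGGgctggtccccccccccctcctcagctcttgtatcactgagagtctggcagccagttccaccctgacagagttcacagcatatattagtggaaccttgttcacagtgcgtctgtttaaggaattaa
Fmod: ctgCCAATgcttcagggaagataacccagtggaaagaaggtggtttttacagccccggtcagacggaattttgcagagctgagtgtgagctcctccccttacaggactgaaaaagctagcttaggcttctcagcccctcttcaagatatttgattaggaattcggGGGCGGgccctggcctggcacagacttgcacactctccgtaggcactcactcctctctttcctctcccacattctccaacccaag
Aspn: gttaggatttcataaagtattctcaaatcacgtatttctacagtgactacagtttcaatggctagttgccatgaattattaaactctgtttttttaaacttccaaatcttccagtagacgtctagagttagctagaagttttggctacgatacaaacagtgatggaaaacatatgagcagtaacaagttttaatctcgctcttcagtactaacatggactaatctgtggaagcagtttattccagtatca
Ogn: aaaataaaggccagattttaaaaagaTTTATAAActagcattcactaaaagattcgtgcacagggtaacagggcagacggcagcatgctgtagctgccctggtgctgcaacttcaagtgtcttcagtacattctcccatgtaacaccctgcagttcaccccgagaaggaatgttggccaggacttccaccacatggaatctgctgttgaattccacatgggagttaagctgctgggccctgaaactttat

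The motifs were the TATA letters TATAAA, the CCAAT box, the GC box GGGCGG, the AP-1 letters TGACTCA or the other AP-1 form TGAGTCA, the E-box CACGTG and the SMAD-related letters CAGACA, searched on both strands in a window of 300 bases, 250 before and 50 after the start. Lum held 1 match to CCAAT, 130 bases before the start and on the opposite strand (ATTGG). Fmod held 1 match to CCAAT 247 bases before the start and 1 match to GGGCGG 85 bases before it. Ogn held 2 matches to TATAAA that overlap each other on opposite strands, 224 and 222 bases before the start. Aspn held no match, which says only that these letters are not in this window. Among all 33469 promoters of the table, 37.5% held CCAAT, 33.1% GGGCGG, 14.2% TATAAA, 21.1% CAGACA, 6.42% CACGTG and 4.63% an AP-1 match, so the matches found here are common ones. A match describes letters and is no evidence of a bound factor. In the same annotation Dcn and Lum are next to each other on chromosome 7, and Ogn and Aspn stand on either side of Omd on chromosome 17. Fmod follows Prelp on chromosome 13, and Bgn is on chromosome X. Both Ogn and Aspn overlap Cenpp in that annotation, and a strand setting for the counting is not stated, so reads of an overlapping transcript could have been counted with them.

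The 8 libraries held between 6809 and 10370 barcodes with at least 5000 UMIs, 88.3% to 97.6% of the barcodes in their tables, with 139656712 to 159685281 UMIs in all and medians of 12742 to 20545 UMIs per barcode. Between 13 and 31 barcode sequences were shared by any pair of libraries, at most 0.386% of the smaller one. All 10 markers of a fibroblastic list (among them Col1a1, Col3a1, Pdgfra and Prrx1) were listed in each library, though Fap stayed at or below 0.748 CPM. Among macrophage markers, the leukocyte gene Ptprc was listed in 2 of 8 libraries and Csf1r stayed at or below 0.526 CPM. Cd14 stood at 10.2 to 15.2 CPM over the 8 libraries. Lyz2 stood at 7.03 CPM with CGRP and 5.76 CPM with zoledronate at week 12. No cell class that should lack the 6 genes could be set beside them as a background for free RNA. Mki67 or Top2a, genes of dividing cells, had a UMI in 6.57% to 50.4% of the barcodes. With 1 library per treatment and week there is no replicate and no test. The 95% intervals (exact Poisson for CPM, exact Clopper-Pearson for shares) cover counting error only, and a sum over a library cannot tell fewer cells making a transcript from less of it per cell. Each listed gene was seen in at least 5 barcodes of its table, and 0 mitochondrial genes were listed, so damaged cells could not be judged by that share.

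Dcn, whose protein coats collagen fibrils and binds TGF-beta, spanned the widest range. At week 12 it stood at 47.2 CPM in the Mg library, 178 CPM in the CGRP library, 355 CPM in the zoledronate library and 2.28 CPM in the control library. At week 4 it stood at 206 CPM with Mg, 9.31 CPM with CGRP, 134 CPM with zoledronate and 148 CPM in the control. The highest library (zoledronate, week 12) held 156 times the level of the lowest (control, week 12), and no neighbouring pair in the order of the 8 libraries had overlapping counting intervals. The control library at week 12 and the CGRP library at week 4 were the only libraries under 10 CPM.

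Lum, the neighbour of Dcn and a regulator of fibril spacing known best from the cornea, was low in the same pair of libraries and also in a further one. At week 12 it stood at 11.2 CPM with Mg, 167 CPM with CGRP, 139 CPM with zoledronate and 6.09 CPM in the control. The week 4 libraries held 218 CPM with Mg, 21.7 CPM with CGRP, 168 CPM with zoledronate and 192 CPM in the control. The libraries thus fell into 5 of at least 139 CPM and 3 of at most 21.7 CPM. The intervals of CGRP at week 12 and zoledronate at week 4 overlapped, and no other neighbours in the order did. The Mg library at week 12 held Dcn at 47.2 CPM, the third lowest of the 8, and Lum at 11.2 CPM, the second lowest.

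Fmod, which binds fibrils at a site shared with lumican, varied less. At week 12 it stood at 46.2 CPM with Mg, 52.5 CPM with CGRP, 66.3 CPM with zoledronate and 19.4 CPM in the control. Week 4 values of Fmod were 108 CPM with Mg, 53.2 CPM with CGRP, 91.7 CPM with zoledronate and 101 CPM in the control. The highest library held 5.55 times the lowest, and again the control at week 12 was the lowest. The CGRP libraries of weeks 12 and 4 had overlapping intervals.

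Aspn, an inhibitor of TGF-beta signalling in cartilage, had an order of its own at week 12. It stood at 24.6 CPM with Mg, 50.6 CPM with CGRP, 7.46 CPM with zoledronate and 11.9 CPM in the control at that week. For week 4 the levels were 105 CPM with Mg, 11.7 CPM with CGRP, 92.9 CPM with zoledronate and 88.4 CPM in the control. The zoledronate library at week 12, which was the highest of all for Dcn, was the lowest of all for Aspn. The intervals of the control at week 12 and CGRP at week 4 overlapped.

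Bgn, the close relative of decorin that is abundant in bone matrix, varied least. At week 12 it stood at 2539 CPM with Mg, 2394 CPM with CGRP, 2106 CPM with zoledronate and 1357 CPM in the control. The week 4 levels of Bgn were 2296 CPM with Mg, 1295 CPM with CGRP, 2339 CPM with zoledronate and 2309 CPM in the control. The spread from lowest to highest was 1.96 times, and the control at week 12 and CGRP at week 4 were both below the other 6 libraries.

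Ogn, first purified from bone and present in many connective tissues, was higher in each of the 4 libraries of week 4 than in any library of week 12. At week 12 it stood at 140.5 CPM with Mg, 254 CPM with CGRP, 385 CPM with zoledronate and 272 CPM in the control. In week 4 Ogn reached 591 CPM with Mg, 410.4 CPM with CGRP, 520.3 CPM with zoledronate and 596 CPM in the control. Its lowest library was Mg at week 12, not the control, and the highest held 4.24 times that level. Markers of other cell types also differed between the weeks. The 10 chondrocyte markers, of which 5 were listed in each library of week 12 and 6 to 8 at week 4, summed to 81.3 to 149 CPM at week 12 and 260.05 to 316 CPM at week 4, and Col2a1 was not listed in any library of week 12. The 10 osteoblast markers, of which 7 to 9 were listed, summed to 270.0 to 404 CPM at week 12 and 775 to 1176 CPM at week 4, most of it Spp1. Not every marker followed its sum. For the chondrocyte marker Sox9 the log2 ratio of CPM + 1, week 12 over week 4, was 0.20 with zoledronate and 0.62 with CGRP. It was -0.08 in the control and -0.67 with Mg. For the osteoblast marker Runx2 it was 0.06 with zoledronate, 0.09 with CGRP, 0.02 in the control and -0.43 with Mg. The part of these markers in the levels of Ogn was not tested. Levels of different genes are not compared here, because UMI counts are not set per transcript length.

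**Figure D1:**
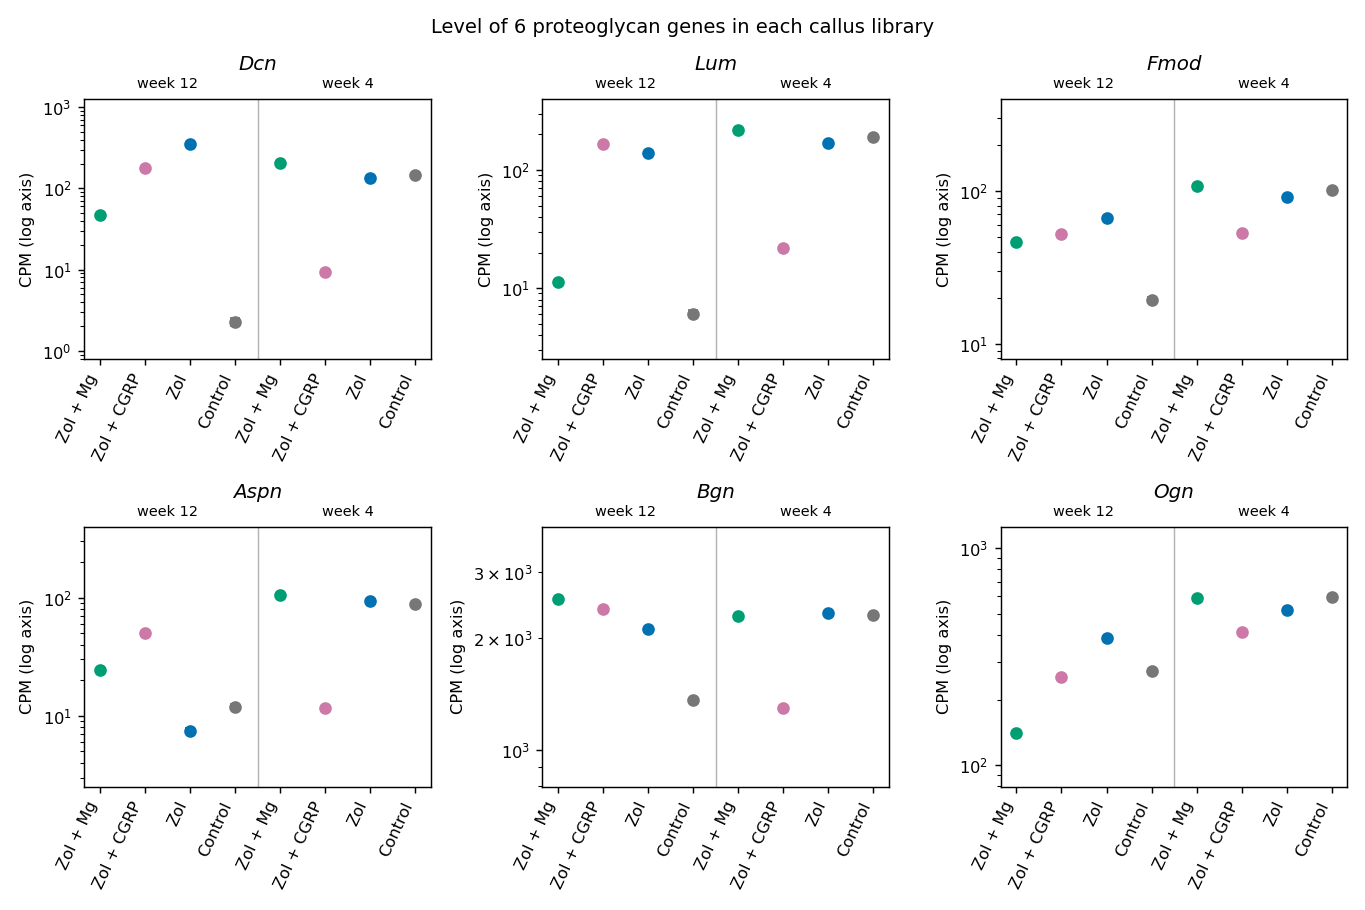
CPM of the 6 genes in the 8 libraries on log axes, 1 panel a gene, with exact Poisson 95% intervals that cover counting error only; Zol + Mg, Zol + CGRP, Zol and Control stand side by side, week 12 left and week 4 right. Dcn runs from 2.28 CPM in the control at week 12 to 355 CPM in the zoledronate library at week 12, while Bgn stays between 1295 and 2539 CPM.

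Shares of barcodes were compared after each barcode was thinned to 5000 UMIs, so that deep and shallow libraries had the same chance to show a transcript. Dcn was then seen in 12.2% of barcodes with Mg, 39.4% with CGRP, 66.5% with zoledronate and 0.964% in the control at week 12. At week 4 it was seen in 47.6% with Mg, 3.5% with CGRP, 32.5% with zoledronate and 35.3% in the control. Before thinning the extremes were 87.3% in the zoledronate library and 2.28% in the control, both of week 12. For Dcn the 8 libraries stood in the same order by thinned share as by CPM.

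Lum was seen, after thinning, in 3.60% of barcodes with Mg, 36.9% with CGRP, 39.5% with zoledronate and 2.73% in the control at week 12. At week 4 the shares for Lum were 50.4% with Mg, 7.98% with CGRP, 38.0% with zoledronate and 45.3% in the control. Aspn was seen in 11.2% with Mg, 19.4% with CGRP, 3.54% with zoledronate and 5.25% in the control at week 12. These values repeat the low Lum of the Mg library and the low Aspn of the zoledronate library as fewer barcodes with a UMI. Bgn was seen in 99.2% to 99.9% of thinned barcodes in all 8 libraries, so for Bgn the libraries differ in UMIs per barcode, with means of 6.56 (CGRP, week 4) to 12.9 (Mg, week 12) of 5000. Ogn ranged from 41.1% (Mg, week 12) to 89.1% (control, week 4) and Fmod from 8.0% (control, week 12) to 34.8% (Mg, week 4).

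**Figure D2:**
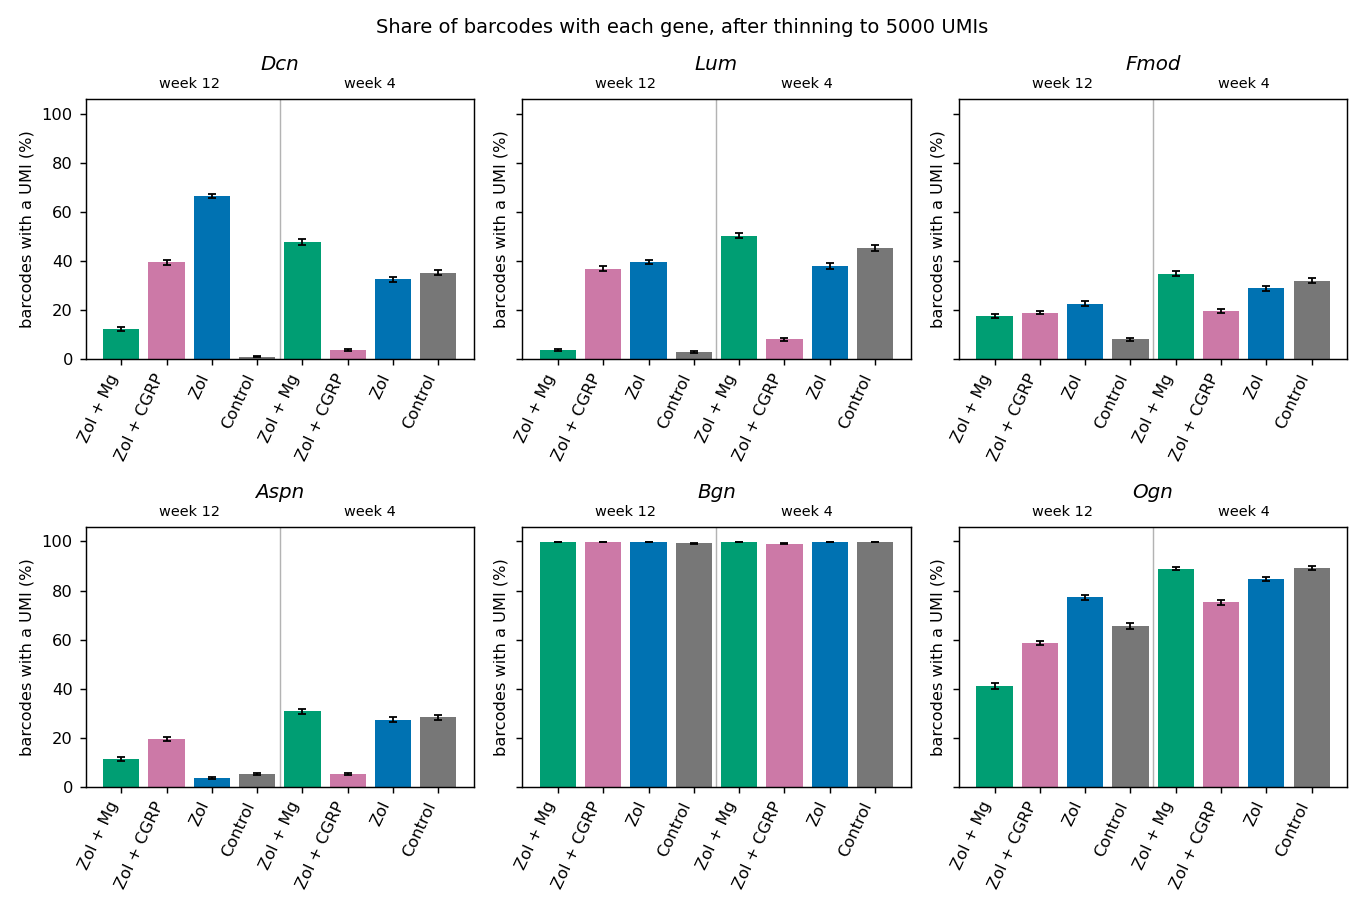
Share of barcodes with at least 1 UMI of each gene after thinning every barcode to 5000 UMIs, with exact Clopper-Pearson 95% intervals that cover counting error only; groups are ordered as in the plot of CPM. Dcn is in 66.5% of barcodes of the zoledronate library and 0.964% of the control library at week 12, and Bgn is in nearly every barcode throughout.

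Zoledronate was read against the control of the same week, with the log2 ratio of CPM + 1 as the measure and a 2-fold difference as the limit. At week 4 the values for zoledronate and the control lay close together for all 6 genes, with log2 ratios between -0.20 (Ogn) and 0.07 (Aspn). None of the 6 members was 2-fold apart, beside 0.318% of the 10388 genes measured (0.221% higher and 0.0963% lower). At week 12, 3 of 6 members were at least 2-fold higher with zoledronate than in the control and 0 were lower, beside 2.03% of 10429 genes at least 2-fold higher, 4.52% at least 2-fold lower and 6.55% in either direction. Dcn had a log2 ratio of 6.76, a 156-fold difference in CPM (95% counting interval 140 to 175). Lum had 4.30, a 22.8-fold difference (21.3 to 24.4), and Fmod had 1.72, a 3.42-fold difference (3.28 to 3.57). Bgn (0.63) and Ogn (0.50) were higher by less than 2-fold, and Aspn was lower at -0.61. The median over the 6 members was 1.18 and over all genes -0.10. The 10 fibroblastic markers summed to 47705 CPM with zoledronate and 29474 CPM in the control at that week, a sum carried mostly by collagen genes. Of these markers 7 were higher with zoledronate and 3 lower, with Col3a1 (1.13) past 2-fold on the higher side and Thy1 (-1.15), a surface glycoprotein, on the lower. The tendon markers, 7 of 10 listed and Fmod among them, summed to 1102 CPM with zoledronate and 502 CPM in the control. Of these only Cilp (-0.19) was lower with zoledronate. The osteoclast markers, 7 of 10 listed with zoledronate and 6 in the control, summed to 147 CPM and 63.0 CPM in that order, most of it Ctsk. Calcr, Dcstamp and Ocstamp were not listed in any library, and Oscar, Mmp9, Itgb3 and Atp6v0d2 stayed at or below 0.265 CPM. Ctsk (1.28), Acp5 (1.06) and Nfatc1 (0.23) were higher with zoledronate, and Oscar (-0.21) was lower. Mki67 or Top2a had a UMI in 6.57% of barcodes with zoledronate and 39.5% in the control. Without the barcodes that held either dividing gene the log2 ratio of Dcn was 6.57 and that of Lum 4.12. The part of the marker levels in these ratios was not tested.

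The ratios of zoledronate over control at week 12 use the control library of that week, which also differs from the control of week 4. For Dcn the zoledronate library of week 12 was in turn the highest of all, at 355 CPM. With 1 library a side, the part of each library in these ratios cannot be told. Between the control libraries, 5 of 6 members lay at least 2-fold below week 4 at week 12, and 0 were higher, beside 1.93% of 10417 genes at least 2-fold lower, 2.85% higher and 4.78% in either direction. The log2 ratio was -5.50 for Dcn, the lowest of all 10417 genes, -4.76 for Lum, -2.79 for Aspn, -2.32 for Fmod and -1.13 for Ogn. Bgn was lower by less than 2-fold, at -0.77. In CPM, Dcn was 64.8-fold lower (58.0 to 72.7) and Lum 31.5-fold lower (29.4 to 33.8) at week 12. The comparison of zoledronate with the control at week 12 and that of the control between weeks share the control library of week 12, so their values do not stand apart from each other.

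With zoledronate alone, 1 of 6 members was at least 2-fold higher and 1 was lower at week 12 than at week 4, beside 1.05% of 10425 genes higher, 2.33% lower and 3.38% in either direction. Dcn was the one that was higher, with a log2 ratio of 1.40 (2.66-fold, 2.62 to 2.70). Aspn was the one that was lower, at -3.47 (12.5-fold lower, 11.7 to 13.2). Lum (-0.28), Fmod (-0.46), Bgn (-0.15) and Ogn (-0.43) were lower by less than 2-fold. Dcn and Aspn thus lay on opposite sides in the zoledronate libraries, while both were lower at week 12 in the control libraries.

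CGRP was read against zoledronate alone, which the CGRP rats also received. At week 4, 3 of 6 members were at least 2-fold lower with CGRP than with zoledronate and 0 were higher, beside 1.71% of 10420 genes at least 2-fold lower, 1.12% higher and 2.83% in either direction. Dcn had a log2 ratio of -3.71 (14.4-fold lower, 13.6 to 15.1), Lum -2.90 (7.76-fold lower, 7.49 to 8.05) and Aspn -2.89 (7.97-fold lower, 7.59 to 8.37). Bgn (-0.85), Fmod (-0.77) and Ogn (-0.34) were lower by less than 2-fold, so all 6 members lay below the zoledronate library. Their median was -1.87, and the median over all genes was -0.02. The fibroblastic markers summed to 28687 CPM with CGRP and 46974 CPM with zoledronate. Of these, 7 were lower with CGRP, Pdgfrb (-1.49) and Col3a1 (-1.20) by more than 2-fold, and Thy1 (0.44), Prrx1 (0.34) and Fap (0.04) were higher. The tendon markers summed to 500.1 CPM with CGRP and 989 CPM with zoledronate, and the osteoclast markers to 64.4 CPM with CGRP and 141 CPM with zoledronate. Among the tendon markers Tnc (0.22) was higher with CGRP. Among the osteoclast markers, Ctsk (-1.27) and Acp5 (-0.46) were lower with CGRP, and Nfatc1 (0.13) and Mmp9 (0.05) were higher. The share of barcodes with Mki67 or Top2a was 50.4% with CGRP and 23.7% with zoledronate. Without those barcodes the log2 ratio of Dcn was -3.44, of Lum -2.72 and of Aspn -2.65. What the marker levels add to these ratios was not tested.

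At week 12 the comparison of CGRP with zoledronate had another form. Only Aspn was at least 2-fold apart among the 6 members, and it was higher with CGRP, beside 2.58% of 10428 genes at least 2-fold higher, 1.6% lower and 4.18% in either direction. Its log2 ratio was 2.61 (6.78-fold, 6.37 to 7.22). Dcn lay at -0.99, just inside the 2-fold limit, and went past it at -1.12 when barcodes with at least 10000 UMIs were used. Ogn (-0.60) and Fmod (-0.33) were lower, and Lum (0.27) and Bgn (0.18) higher, all by less than 2-fold. Between the CGRP libraries of weeks 12 and 4, 3 of 6 members were at least 2-fold higher at week 12 and 0 were lower, beside 3.29% of 10416 genes at least 2-fold higher, 2.83% lower and 6.13% in either direction. These were Dcn at 4.12 (19.1-fold, 18.1 to 20.2), Lum at 2.89 and Aspn at 2.03. Bgn was higher at 0.89, Ogn lower at -0.69, and Fmod lay at -0.02, with an interval of its ratio of 0.957 to 1.02. The CGRP libraries and the control libraries therefore stood on opposite sides between the weeks for Dcn, Lum and Aspn. The CGRP library of week 4 enters both its comparison with zoledronate and the one between weeks.

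Mg was also read against zoledronate alone. At week 4 no member was 2-fold apart, beside 0.336% of 10425 genes (0.144% higher and 0.192% lower). Dcn had the largest log2 ratio of the 6 at 0.62 (1.55-fold, 1.52 to 1.57), above that of 99.5% of all genes measured, and Lum had 0.37. Fmod (0.23), Aspn (0.18) and Ogn (0.18) were slightly higher with Mg, and Bgn lay at -0.03. At week 12, 3 of 6 members were at least 2-fold lower with Mg than with zoledronate and 1 was at least 2-fold higher, beside 2.11% of 10428 genes lower, 3.81% higher and 5.92% in either direction. Lum had -3.52 (12.4-fold lower, 11.8 to 13.0), Dcn -2.88 (7.51-fold lower, 7.33 to 7.70) and Ogn -1.45 (2.74-fold lower, 2.70 to 2.78). Aspn had 1.60 (3.30-fold higher, 3.09 to 3.52), while Fmod (-0.51) and Bgn (0.27) stayed within 2-fold. Aspn was therefore higher than in the zoledronate library of week 12 in both the Mg and the CGRP library, which share that zoledronate library. The fibroblastic markers summed to 40584 CPM with Mg and 47705 CPM with zoledronate at week 12, but 6 of the 10 were higher with Mg, Twist2 (1.57) by more than 2-fold, and the 4 that were lower were Col1a1, Col1a2, Col3a1 and Fn1. Tendon markers summed to 720 CPM with Mg and 1102 CPM with zoledronate, but they were split by direction. Cilp2 (-3.59), Scx (-0.90), Fmod (-0.51) and Tnc (-0.13) were lower with Mg, and Tnmd (3.05), Cilp (2.66) and Thbs4 (0.81) were higher. Chondrocyte markers summed to 81.3 CPM with Mg and 149 CPM with zoledronate. Hapln1 (-2.82), Comp (-1.31) and Sox9 (-0.92) were lower with Mg, and Acan (0.20) and Snorc (0.18) were higher. The sum of the adipocyte markers went the other way, with 28.3 CPM with Mg (8 of 10 listed) and 5.79 CPM with zoledronate (6 of 10 listed). Cfd (2.93), Fabp4 (2.59) and Lpl (2.24) were among those higher with Mg, and Car3 (-1.53) was lower. Mki67 or Top2a was in 19.2% of barcodes with Mg and 6.57% with zoledronate. Without those barcodes Dcn lay at -2.85 and Lum at -3.37. The part of the marker levels was not tested here either.

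Between the Mg libraries, 5 of 6 members lay at least 2-fold below week 4 at week 12 and 0 were higher, beside 1.84% of 10450 genes at least 2-fold lower, 3.01% higher and 4.85% in either direction. The log2 ratios were -4.17 for Lum, -2.10 for Dcn, -2.07 for Ogn, -2.05 for Aspn and -1.20 for Fmod. Bgn lay at 0.14, on the other side. In the control libraries Dcn had the lowest ratio of the members between weeks, and in the Mg libraries Lum had it. Over the 4 comparisons of week 12 with week 4, Ogn lay below 0 in each of them (control, zoledronate, CGRP and Mg), and Dcn and Bgn each lay below 0 in 2 of them. Fmod also lay below 0 in each, but its -0.02 in the CGRP libraries became 0.01 with TMM or DESeq2 scaling.

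**Figure D3:**
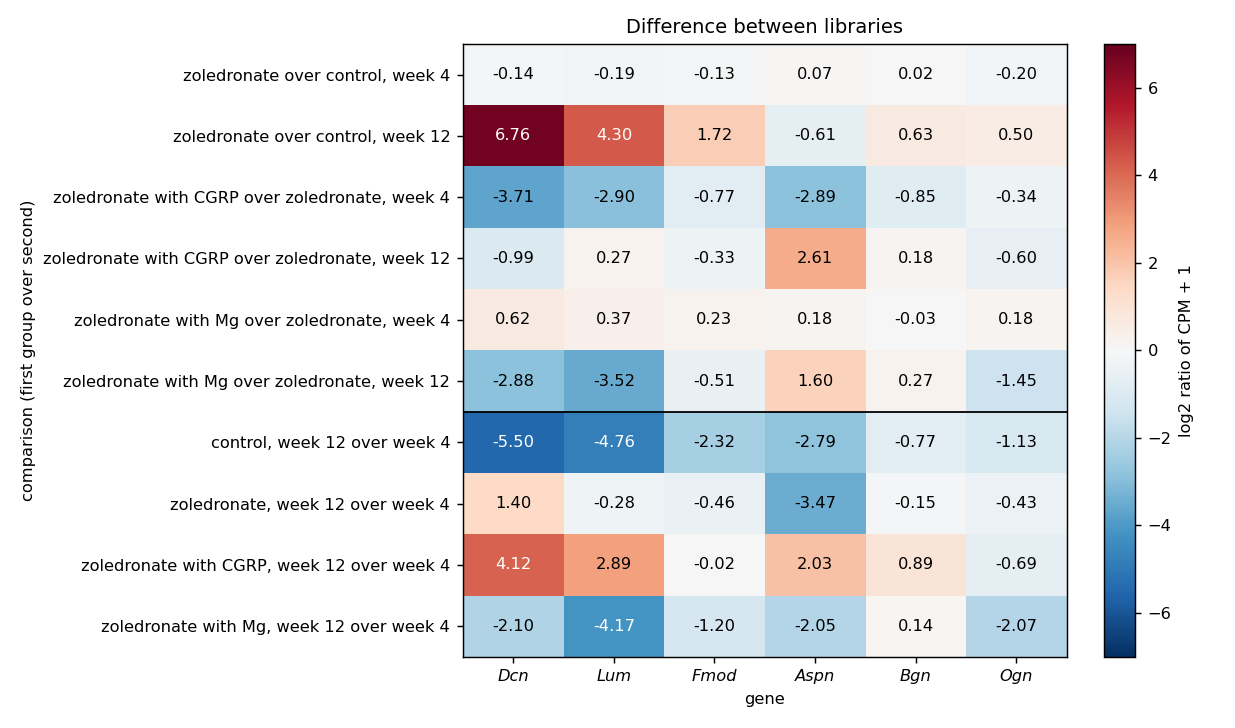
Heat map of the log2 ratio of CPM + 1 of each member (columns) in the 10 comparisons of 2 libraries (rows), given as colour and number, with 2-fold at 1 and -1 and a black line between treatment and week comparisons; each comparison is of 1 library with 1 library, and comparisons that share a library are not independent. The widest values are 6.76 for Dcn with zoledronate over control at week 12 and -5.50 for Dcn in the control at week 12 over week 4.

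Members were also seen together in single barcodes. Of the 15 pairs of members, 12 were found together in more thinned barcodes than the product of their shares in all 8 libraries. The exceptions were Lum with Fmod (7 of 8 libraries, 0.94 in CGRP at week 4), Aspn with Bgn (5 of 8) and Bgn with Ogn (4 of 8). All pairs with Bgn had ratios of 0.997 to 1.01, because nearly every barcode held Bgn, so the count says little for them. In the control at week 12, Dcn with Fmod had a ratio of 1.00026 (6 barcodes with both) and Dcn with Aspn 1.02 (4 barcodes). Pairs of other genes were not measured, so it is not known how many of them would pass the same rule. Barcodes of a library are not replicates, so these ratios are a description without a test.

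Dcn and Lum had the highest ratio of observed to product shares in the libraries where both were scarce. The ratio has a ceiling that falls as the larger of both shares rises, so its height cannot be compared between libraries. At week 12 it was 3.87 with Mg, 1.51 with CGRP, 1.20 with zoledronate and 6.85 in the control, the last from 14 barcodes with both. At week 4 it was 1.20 with Mg, 3.42 with CGRP (77 barcodes), 1.58 with zoledronate and 1.35 in the control. In the Mg library of week 12, Lum was in 13.9% of barcodes with Dcn and 2.16% of those without. In the control library of week 12, Lum was in 18.7% of 75 barcodes with Dcn and 2.57% of those without. In the zoledronate library of week 12 the shares were 47.4% with Dcn and 23.9% without. Lum was more frequent beside Dcn in each of the 8 libraries.

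**Figure D4:**
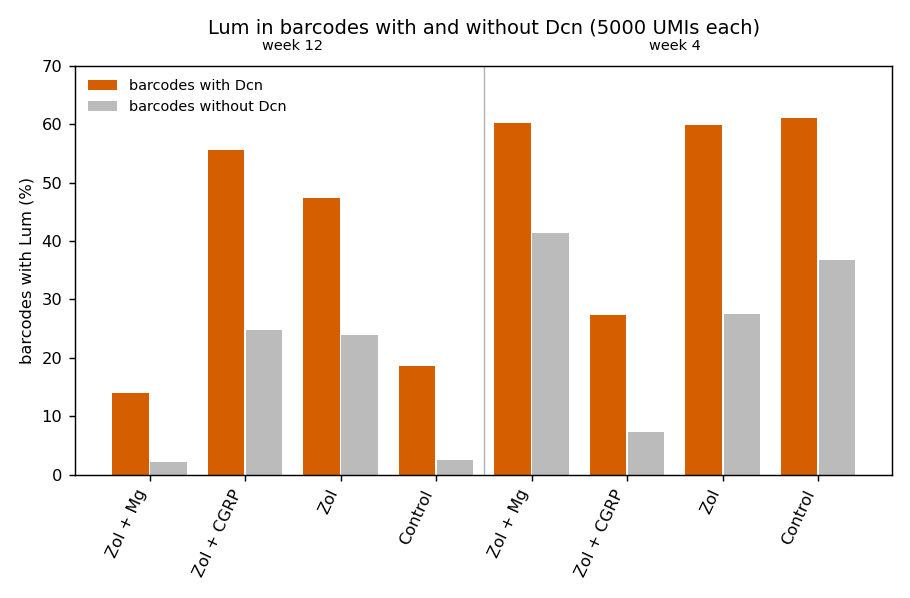
Share of thinned barcodes with Lum among barcodes with a UMI of Dcn and among those without, in each library, drawn as bars without intervals. In each library the share is higher among barcodes with Dcn, from 13.9% against 2.16% with Mg at week 12 to 61.0% against 36.7% in the control at week 4.

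Lum and Aspn were also found together, with ratios of 1.25 (control, week 4) to 2.23 (Mg, week 12). Aspn and Ogn, which flank Omd on chromosome 17, had ratios of 1.04 (Mg, week 4) to 1.45 (Mg, week 12). In the zoledronate library of week 12, Aspn was in 4.85% of barcodes with Lum and 2.67% of those without. Barcodes with all 6 members made up 0.125% with Mg, 2.48% with CGRP, 0.550% with zoledronate and 0% in the control (0 of 7777 barcodes, which allows a share of up to 0.0386%, taking 3 barcodes as the limit of a count of 0) at week 12. At week 4 they made up 5.54% with Mg, 0.0124% with CGRP (1 barcode), 4.06% with zoledronate and 3.38% in the control. The mean number of members per thinned barcode ran from 1.82 in the control at week 12 to 3.52 with Mg at week 4.

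The transcripts were spread unevenly among barcodes in some libraries. In the Mg library of week 12, 77 barcodes (0.963%) with at least 5 UMIs of Dcn held 29.2% of all UMIs of Dcn after thinning, and 1 barcode held 42. In the zoledronate library of the same week, 1157 barcodes (12.5%) held 45.6% of them. In the control of that week, 2 barcodes reached 5 UMIs. The variance of Dcn over its mean was 4.41 with Mg, 3.56 with CGRP, 3.13 with zoledronate and 2.39 in the control at week 12. The value of the Mg library was the highest of the 8 for Dcn. For Lum in the Mg library of week 12, 20 barcodes held 28.9% of the UMIs, with a variance over mean of 4.63. Among barcodes with a UMI, the mean number of UMIs of Dcn was 2.11 with Mg, 2.52 with CGRP, 2.96 with zoledronate and 1.39 in the control at week 12. This mean cannot lie below 1, so it does not tell fewer cells from less of the transcript per cell. The variance of Bgn over its mean was 1.83 to 2.99 in the 8 libraries.

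Detection was set beside genes of other cell states within each library. Dcn, Lum, Fmod, Aspn and Ogn were each in a smaller share of barcodes with a UMI of Mki67 or Top2a than of barcodes without one, in 8 of 8 libraries. The intervals lay apart in 6, 8, 6, 7 and 8 libraries for these genes in that order. At week 12 Ogn was in 25.7% of barcodes that held a dividing gene against 43.2% of the others in the Mg library, and in 62.0% against 77.8% in the zoledronate library. In the control library of that week it was in 53.1% of barcodes that held one against 70.2% of the others. For Dcn the ratio of both shares lay between 0.510 and 0.913, and for Aspn between 0.397 and 0.723. Bgn showed no such side, with 4 libraries lower and 4 higher. All barcodes were compared at 5000 UMIs.

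**Figure D5:**
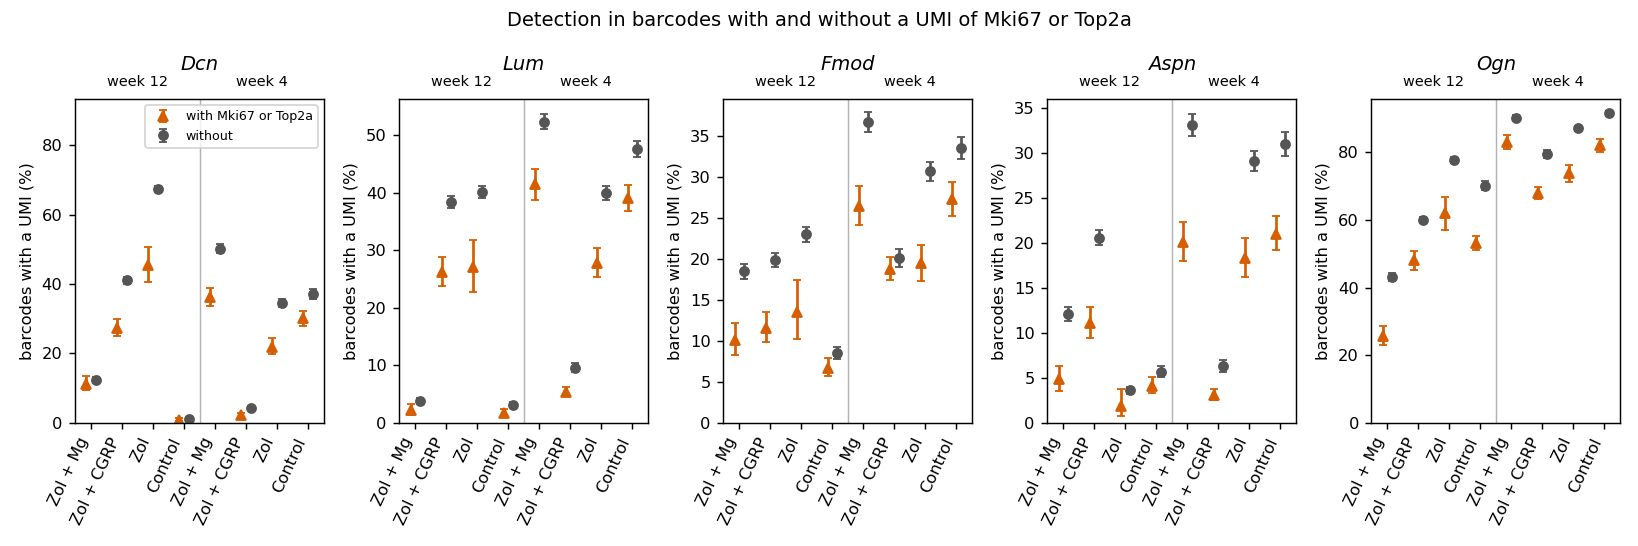
Share of thinned barcodes with each gene among barcodes with a UMI of Mki67 or Top2a (triangles) and without one (circles) in the 8 libraries, with exact Clopper-Pearson 95% intervals that cover counting error only; Bgn is left out because it is in nearly every barcode. The triangles lie below the circles for each of the 5 genes in all 8 libraries, for example 25.7% against 43.2% for Ogn with Mg at week 12.

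Beside the osteogenic genes Alpl (alkaline phosphatase) or Ibsp (bone sialoprotein), Ogn was in a larger share of barcodes in 8 of 8 libraries, with intervals apart in all 8. Fmod was so in 7 of 8 libraries, with intervals apart in the 7, and the exception was the control at week 12, with 7.80% of barcodes with these genes and 8.0% of those without. Dcn and Lum were each in a larger share beside the osteogenic genes in 7 libraries (intervals apart in 5 and 4), and Aspn in 6 (intervals apart in 3). Beside the cartilage genes Acan or Hapln1, Fmod was in a larger share in 8 libraries (intervals apart in 7) and Lum in 8 (intervals apart in 6), while Aspn was higher in 4 and lower in 4. Ogn was also higher there in 8 libraries (intervals apart in 2), and Dcn was higher in 6 (intervals apart in 5) and lower in 2. Fmod was in a smaller share of barcodes with Il1rl1, the receptor of interleukin-33, in 8 of 8 libraries with intervals apart in all 8. Ogn was also lower with Il1rl1 in 8 libraries (intervals apart in 6), Aspn in 7 (apart in 2) and Dcn in 6 (apart in 2). Lum was lower in 4 and higher in 4. At week 12 Fmod was in 10.3% of barcodes with Il1rl1 against 18.8% of the others in the Mg library, 14.8% against 24.1% in the zoledronate library, and 7.24% against 9.43% in the control library. Beside the chemokine genes Ccl2 or Ccl7 no member kept to 1 side in all 8 libraries.

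Of the 12 other family members looked for, Prelp, Omd and Tsku were listed in all 8 libraries, Epyc in 7, Nyx in 5 (at most 0.0702 CPM) and Optc in 1. Prelp, which anchors basement membranes to collagen and is the neighbour of Fmod, stood at 27.0 CPM with Mg, 29.7 CPM with CGRP, 14.8 CPM with zoledronate and 3.41 CPM in the control at week 12. Its week 4 levels were 14.7 CPM with Mg, 18.2 CPM with CGRP, 12.5 CPM with zoledronate and 21.8 CPM in the control. As with Dcn, Lum and Fmod, the control at week 12 was the lowest library, but the CGRP library of week 4 was not low. Omd (osteomodulin, a keratan sulfate proteoglycan of bone), which lies between Ogn and Aspn, stood at 1.05 CPM with Mg, 2.66 CPM with CGRP, 1.53 CPM with zoledronate and 1.36 CPM in the control at week 12. At week 4 Omd stood at 3.64 CPM with Mg, 2.93 CPM with CGRP, 3.13 CPM with zoledronate and 4.47 CPM in the control. Like Ogn, Omd was higher in each library of week 4 than in any library of week 12. Tsku varied little, between 18.5 and 29.7 CPM. Epyc, the next family member along chromosome 7 after Dcn, Lum and Kera, stayed at or below 0.530 CPM.

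Genes that build the sugar chains were also measured, and over all genes 0.318% to 6.55% were 2-fold apart in a comparison. Of 17 or 18 measured genes of chondroitin and dermatan sulfate chain synthesis, 0 were 2-fold apart in 9 of the 10 comparisons, and in the control libraries 1 was, Csgalnact1 (chain initiation) at -1.01 for week 12 over week 4. Among 6 measured genes of keratan sulfate chain synthesis, Chst1 (a sulfotransferase) was the only one past 2-fold. It stood at 5.54 CPM with Mg, 3.38 CPM with CGRP, 0.840 CPM with zoledronate and 6.10 CPM in the control at week 12. The zoledronate library of week 12 was thus the lowest for Chst1 as it was for Aspn.

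Of the fibril collagens that these proteins bind, 9 of 13 were measured. Col3a1 (type III collagen) was past 2-fold in the same direction as Dcn with zoledronate over control at week 12 (1.13), with CGRP over zoledronate at week 4 (-1.20) and with CGRP at week 12 over week 4 (1.54). In the other comparisons where Dcn was past 2-fold, Col3a1 stayed within 2-fold. Its log2 ratio was -0.26 with Mg over zoledronate at week 12, and between weeks -0.44 in the control and 0.48 with zoledronate. With Mg between weeks it lay at 0.39, on the other side from Dcn. Other collagens of the list passed 2-fold where Col3a1 did not. In the control between weeks Col6a2 (-1.64) and Col5a3 (-1.11) did so on the side of Dcn, and Col14a1 (0.21) was the only one higher. With Mg between weeks Col11a1 (-3.47) was past 2-fold on the side of Dcn and Col14a1 (2.28) on the other. Col14a1, a collagen of fibril surfaces, stood at 155 CPM with Mg, 198 CPM with CGRP, 36.1 CPM with zoledronate and 81.9 CPM in the control at week 12. Its log2 ratio over zoledronate at week 12 was 2.07 with Mg and 2.42 with CGRP, and that of Aspn was 1.60 with Mg and 2.61 with CGRP. At week 4 both genes lay on opposite sides of zoledronate. Col14a1 had -0.77 with Mg and 0.60 with CGRP, and Aspn had 0.18 with Mg and -2.89 with CGRP. Col11a1 (type XI collagen) stood at 224 CPM with Mg, 786 CPM with CGRP, 1920.3 CPM with zoledronate and 1149 CPM in the control at week 12, and Mg was the lowest library for it as for Ogn.

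Among 11 or 12 measured genes of cleavage and processing, 0 to 3 were past 2-fold in a comparison, beside 0.318% to 6.55% of all genes. The 3 were reached with Mg over zoledronate at week 12 (2 higher, 1 lower) and in the control libraries between weeks (1 higher, 2 lower). Mmp2, a gelatinase that can cleave decorin, stood at 530 CPM with Mg, 503 CPM with CGRP, 247 CPM with zoledronate and 157 CPM in the control at week 12. At week 4 Mmp2 stood at 310 CPM with Mg, 64.2 CPM with CGRP, 293 CPM with zoledronate and 166 CPM in the control. Its lowest library was CGRP at week 4, one of the pair of libraries under 10 CPM of Dcn. Tll1, a tolloid-like protease of the family that trims biglycan, stood at 96.4 CPM in the control at week 12 and at 17.5 to 33.6 CPM in the other 7 libraries. Among 15 or 16 measured receptors and growth factors, 0 to 2 were past 2-fold in a comparison, beside the same range of shares over all genes. Bmp4 stood at 41.5 CPM with CGRP and 2.53 CPM with zoledronate at week 4, and at 2.05 CPM with zoledronate and 19.9 CPM in the control at week 12. Bmp4 was thus highest in the pair of libraries where Dcn was lowest.

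Likeness of pattern was measured as the Pearson correlation of log2(CPM + 1) over the 8 libraries, and it is a description of 8 points that share their depth and their treatment groups. Among the members, Dcn and Lum had r = 0.88 (Spearman rho 0.67), Lum and Fmod 0.85 (0.93), Aspn and Ogn 0.45 (0.50), and Bgn and Ogn -0.04 (-0.31). Omd had r = 0.83 with Ogn (rho 0.93) and 0.72 with Aspn (rho 0.64). Of 2403 other genes with a mean of at least 50 CPM, those most like Dcn were Gas5 (0.99), Ctsb (0.96) and Arl2 (0.96), and those most like Lum were Ext2 (0.94), Herpud1 (0.94) and Slc29a1 (0.93). Those most like Fmod were Pdgfrl, Mxra8 and Aga (each 0.97), and those most like Aspn were Pnisr (0.96), Vat1 (0.88) and Ninj1 (0.85). Those most like Bgn were Wipi1 (0.98), Ctsk (0.97) and Tnn (0.97), and those most like Ogn were Col11a1 (0.96), Ufsp2 (0.96) and Acyp1 (0.94). The likeness is in shape and not in size, since Gas5 ranged from 462 CPM in the control at week 12 to 943 CPM in the zoledronate library at week 12, a far smaller range than that of Dcn.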

How the data were processed

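Single-cell RNA sequencing was done on cultured cells of rat fracture callus in 8 libraries, 1 for each of 4 treatments at weeks 12 and 4 after fracture. For each library the authors deposited a table of raw UMI counts of genes in barcodes. STAR and the Rnor_6.0 build are named in the submitters' processing notes, and the sources used here state no annotation, strand setting, cell calling or doublet removal. No doublet caller was run and no clusters were made.

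Barcodes with at least 5000 UMIs were kept. The UMIs of each gene were summed and scaled to counts per 1000000 UMIs of the library (CPM), and log2 ratios were taken of CPM + 1 over all genes with at least 50 UMIs in the 2 libraries compared. Each ratio has 1 library on each side, so no p-value or standard error was computed. Intervals are exact at 95% (Poisson, Clopper-Pearson, conditional binomial). For shares, co-detection and cell states, each barcode was thinned to 5000 UMIs in 1 seeded draw without replacement. The code was tested on simulated data.

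The members, gene lists, markers and states were chosen with earlier results of these data known. Genes named are the 6 members, other genes of the family, neighbours, the 3 genes most like each member among those with a mean of at least 50 CPM, and in each list up to 4 genes with the largest ratios in a comparison. Alternatives were TMM factors (edgeR 4.0.16) and DESeq2 1.42.0 size factors for scaling, other minimums, pseudocounts of 0.1 and 5 CPM, and a 1.5-fold limit. A run without barcodes holding Mki67 or Top2a was added after seeing the data. Promoters and neighbours came from RefSeq tables of the GRCr8 build. Python 3.11.15, numpy 2.4.6, scipy 1.17.1, pandas 2.3.3, matplotlib 3.10.9 and R 4.3.3 were used.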

Additional observations from a re-analysis of the deposited data

Results flagged for a closer look

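Aspn stood on opposite sides of zoledronate alone at the 2 weeks when CGRP was added. Its log2 ratio for CGRP over zoledronate was 2.61 at week 12 and -2.89 at week 4. Dcn stood on opposite sides for Mg over zoledronate, with -2.88 at week 12 and 0.62 at week 4. Both were picked out because each was at least 1.5-fold apart at both weeks, in opposite directions. Each value compares 1 library with 1 library, so the difference between the weeks was not tested.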

How the results depend on the processing

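Of the 60 ratios of members, 26 were at least 2-fold apart, and all 26 stayed so under each of 9 alternatives (TMM factors, DESeq2 size factors, all barcodes, at least 10000 UMIs, without the barcodes above the 99th percentile of UMIs, the mean of each barcode's CPM, without barcodes holding Mki67 or Top2a, and pseudocounts of 0.1 and 5 CPM). The sign was the same for 59 or 60 of 60, the exception being Fmod between the CGRP libraries. With barcodes of at least 10000 UMIs, 2 members and not 1 were 2-fold apart with CGRP over zoledronate at week 12. With a 1.5-fold limit the counts were 5 for zoledronate over control at week 12 (16.9% of all genes), 3 for CGRP over zoledronate at week 12 (11.7%) and 5 at week 4 (9.96%), 1 for Mg over zoledronate at week 4 (1.34%), and between weeks 5 with CGRP (14.6%) and 6 in the control (12.9%). Thinning to 2000 UMIs left 7 of 15 pairs above the product of their shares in all 8 libraries, against 12 at 5000 UMIs, and the cause was not tested. The largest shift of a log2 ratio was 0.11 with TMM factors, 0.13 with DESeq2 size factors, 0.32 without Mki67 or Top2a barcodes and 1.13 with a pseudocount of 5 CPM. No paired analysis was possible because each treatment and week has 1 library. With 1 library a group, the spread between animals, dishes and libraries is unknown, and depth does not reduce it.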

Other observations

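Barcodes with fewer than 5000 UMIs, which the values above use only in the all-barcodes alternative and in the counts of shared barcodes, also held the members. Their CPM was higher than that of the deeper barcodes in 8 of 8 libraries for Lum, Fmod, Aspn, Bgn and Ogn, and in 4 of 8 libraries for Dcn. Some of these differences lay within counting error. In the control at week 12 the 95% counting interval held the deeper value for Lum (4.76 to 14.6 CPM), Fmod (17.8 to 33.9 CPM) and Aspn (11.1 to 24.4 CPM). It also did for Lum in the control at week 4 (187 to 231 CPM). Between 197 and 960 barcodes with fewer than 5000 UMIs were in a library.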
